A study of Homo sapiens with 6 samples.

Results

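HOX genes encode homeodomain transcription factors that give cells their position along the body axis. They lie in 4 clusters, HOXA to HOXD, in which genes are numbered by paralog group from the HOX1 end, used at the head side of the embryo, to the HOX13 end, used at the tail side, and in which genes close to each other often share regulation. MLL complexes of the trithorax group keep active HOX genes on, Polycomb complexes keep silent ones off, and retinoic acid acts mostly on the HOX1 side. The kidney forms with HOX11 paralogs active in its progenitor tissue, and cell lines from kidney tumors usually keep part of their HOX pattern.

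The members were taken by symbol (HOX, a cluster letter and a number). The table listed 37 of the 39 HOX symbols among 30267 genes (HOXD10 and HOXD11 were not listed), and 28 of the 37 had 3 or more libraries with 10 or more normalized counts and were tested. These were all 11 HOXA genes, 9 of 10 HOXB genes, 7 of 9 HOXC genes and 1 of 7 HOXD genes. Bulk RNA was compared between 3 shRNF25 libraries, which carry an RNF25 hairpin, and 3 shControl libraries, which carry the pLKO vector, all from SW839, a renal cell carcinoma (RCC) cell line, in order to find the genes that depend on the ubiquitin ligase RNF25. The shRNF25 library names share 1 hairpin name, and per the methods such lines were made by lentiviral infection. The control library names differ in form, the treatment text of controls too speaks of the shRNF25 plasmid, and apart from the words "biological triplicates" no label says that libraries came from separate cultures, so p-values measure the spread between these libraries, which may be technical.

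The libraries held 18647460 to 19943154 reads on genes. RNF25 itself (chr2:218663864-218672411, GRCh38, minus strand) stood at 694, 534 and 536 normalized counts in shControl and 214, 246 and 265 in shRNF25. It fell, with a log2 fold change of -1.27 (SE 0.150, limma adjusted p = 0.000585). Of 12 epithelial and RCC line markers, 8 reached 10 normalized counts in every library, led by KRT8, and PAX2 and LRP2 were not listed. CUBN and CA9 were low and not tested. CUBN had 2.05 to 14.6 over all libraries. CA9 had 7.74, 12.3 and 50.7 in shControl and 8.20, 1.85 and 4.77 in shRNF25. The summed level of the 10 listed markers was 46440 to 56560 in shControl and 60040 to 64300 in shRNF25. Of 14 blood, vessel and stroma markers, 3 reached 10 in every library (PECAM1, COL1A1 and ACTA2), CD3E, CD68, COL1A2 and DCN had at most 3 reads in any library, and the sum was 1614 to 1997 in shControl and 1317 to 1603 in shRNF25. Both sums differed between the groups without overlap, and KRT8 with KRT18 held most of the first and COL1A1 most of the second. Among the single markers VIM was called higher (means 355 and 832), and CDH5, a vessel marker, was called lower, with 73.0, 102.6 and 199 in shControl and 3.65, 8.31 and 5.72 in shRNF25 (it passed the filter only through the shControl libraries). PECAM1, also of vessels, had means of 400.3 and 452 and was not called. The part of these markers in the HOX results was not tested. In bulk RNA, fewer cells that express a gene and less RNA of it per cell cannot be told apart.

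In shRNF25 cells HOXA11, HOXA13 and HOXB13 rose, HOXA3, HOXB7 and HOXB9 were among the genes that fell, and no HOXC gene was called. HOXD4 was also called higher, but it reached the filter in the shRNF25 libraries alone. A gene was called at an adjusted p below 0.05 (limma on log2(normalized count + 1), Benjamini-Hochberg over all 16554 tested genes) and a fitted fold change of at least 1.5. The 8 called HOX genes were 28.6% of the 28 tested, against 15.7% of all tested genes. Without HOXD4, 7 of 27 were called, or 25.9%. By direction, 8.65% of all tested genes were called higher and 7.1% lower. No overlap between the groups was seen in 13 of the 28 HOX genes and in 42.5% of all tested genes, so the HOX count was near the background. The median log2 fold change was -0.06 over the tested HOX genes and -0.01 over all tested genes. For each gene without overlap the two-sided exact permutation p was 0.1, the smallest that 3 against 3 libraries allow. Without shControl replicate 1, and likewise without shRNF25 replicate 2 or 3, the number of HOX genes called lower went from 4 to 2. Over all tested genes, the number called lower was 1175. It was 1253 without shControl replicate 1, and 827 and 823 without shRNF25 replicates 2 and 3. Calls over all genes thus also fell when an shRNF25 library was left out, which bears on each call said below to be lost there.

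**Figure D1:**
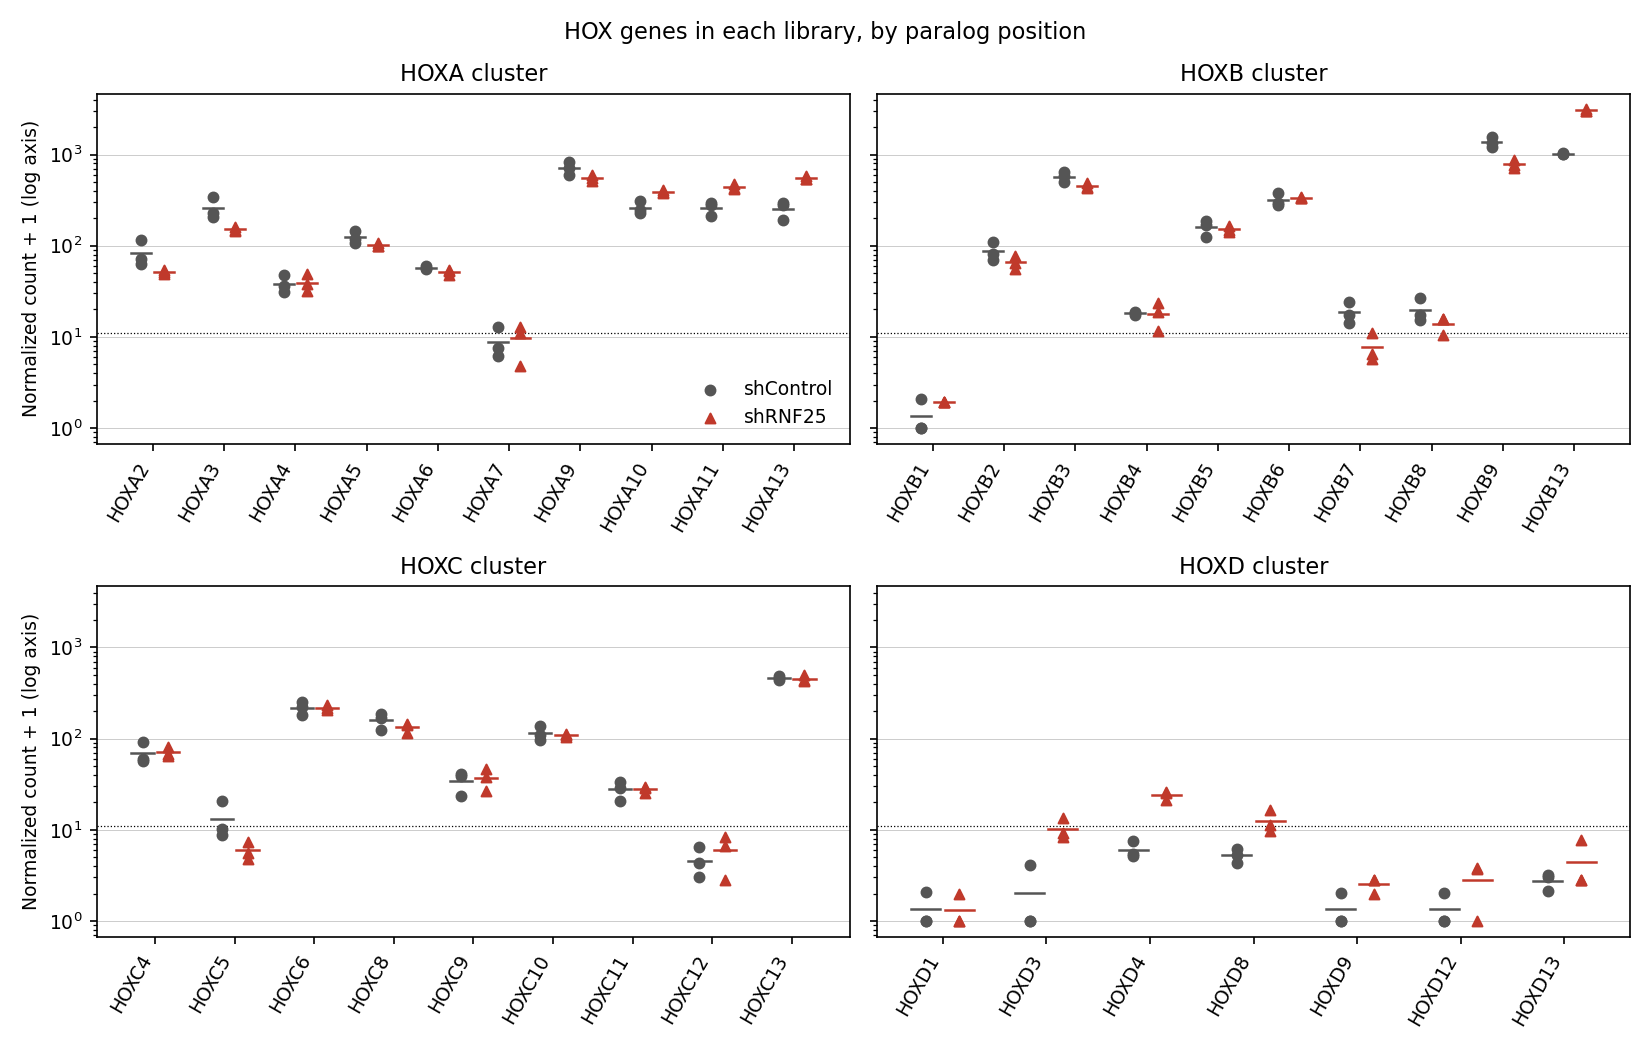
Normalized count plus 1 (log axis) of HOX genes in each library, with genes in paralog order in 4 panels, 1 per cluster. Grey circles are the 3 shControl libraries, red triangles the 3 shRNF25 libraries, short lines their means, and the dotted line a normalized count of 10; the shRNF25 libraries of HOXB13 lie at 2972 to 3125, above the shControl libraries at 1005 to 1044.

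HOXB13, the last gene of its cluster and a factor of the hindgut and prostate, gave the smallest p of all HOX genes. It had 1005, 1044 and 1007 normalized counts in shControl and 3035, 2972 and 3125 in shRNF25. All 3 shRNF25 libraries were far above all controls, and the libraries within each group were close to each other. The mean rose from 1019 ± 22.3 to 3044 ± 76.7 (SD, n = 3), which is 2.99-fold, and the log2 fold change was 1.58 (SE 0.0948, limma adjusted p = 1.69e-05, rank 33 of 16554 genes by p). Its exons (chr17:48724763-48729178, minus strand) share no base with another annotated gene on either strand, and 0.0585% of its 50-base words occur in another gene.

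HOXB9, the next gene of the cluster on the HOX1 side, moved the other way. Its values were 1539.9, 1207 and 1323 in shControl and 869, 758 and 716 in shRNF25. It fell 1.74-fold from 1357 ± 169 to 781 ± 79.2 (SD, n = 3, log2 fold change -0.79, SE 0.130, limma adjusted p = 0.00316). The 2 genes thus changed rank. The HOXB13 to HOXB9 ratio of normalized counts within a library was 0.653, 0.866 and 0.761 in shControl and 3.49, 3.92 and 4.37 in shRNF25. This pair of neighbors was picked after its values were seen.

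HOXB7, which is used in the trunk, had few reads. Its normalized counts were 23.2, 13.3 and 16.2 in shControl and 10.0, 5.54 and 4.77 in shRNF25. It fell by 1.28 on the log2 scale (SE 0.372, limma adjusted p = 0.0381), but the call was lost when shControl replicate 1, 2 or 3 or shRNF25 replicate 2 or 3 was left out, without the filter on low values, and with DESeq2. HOXB6, the third HOXB gene by level per kb, had 277, 293 and 377 in shControl and 334, 336 and 337 in shRNF25, so the groups overlapped. HOXB2 to HOXB6 had log2 fold changes from -0.39 to 0.10, none called. HOXB8, between HOXB7 and HOXB9, had -0.48 (SE 0.325) and was not called. HOXB1 had at most 1 read in any library.

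In the HOXA cluster, HOXA3 fell and HOXA11 and HOXA13, at the other end, rose. HOXA3, a factor of thymus and parathyroid formation, had 344, 229 and 206 in shControl and 149, 161 and 145 in shRNF25. The groups did not overlap, and shControl replicate 1 was the highest. HOXA3 fell 1.71-fold (log2 fold change -0.74, SE 0.195, limma adjusted p = 0.0267), and the call was lost without shControl replicate 1 (-0.52) and without each of the 3 shRNF25 replicates. Of the exon bases of HOXA3, 15.4% are overlapped on the opposite strand by HOXA-AS2 and HOXA-AS3, and 9.24% are shared on the same strand. Other HOXA genes also overlap antisense RNAs, among them HOXA7 (62.5%) and HOXA10 (16.4%). Whether reads were counted by strand is not given, so such reads may not have been told apart. HOXA2, the neighbor of HOXA3, had -0.64 (SE 0.247) and was not called.

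HOXA4 to HOXA7 had log2 fold changes between -0.26 and 0.07 and none was called. HOXA9, a factor of blood stem cells and of leukemias with MLL fusions, had 834, 596 and 710.2 normalized counts in shControl and 506, 592 and 557 in shRNF25. The groups did not overlap but came close, and HOXA9 was not called (log2 fold change -0.36, SE 0.144, limma adjusted p = 0.107).

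HOXA10, needed for the uterus, had 226, 247 and 311 in shControl and 374, 405 and 385 in shRNF25. Its log2 fold change of 0.58 (SE 0.147, limma adjusted p = 0.0218) passed the p but was just under the 1.5-fold minimum, and it was called with edgeR (0.60), with 2 other scalings and without shControl replicate 3 (0.71). HOXA11, one of the HOX11 paralogs of the kidney, had 210.0, 281 and 292 in shControl and 423, 429 and 469.9 in shRNF25. All shRNF25 libraries were above all controls, and HOXA11 rose 1.69-fold (log2 fold change 0.76, SE 0.153, limma adjusted p = 0.00781). HOXA13, which forms the limb ends and the urogenital tract, had 277, 191 and 294 in shControl and 533, 585 and 540.5 in shRNF25. It rose 2.18-fold (254 ± 55.3 to 553 ± 27.9, SD, n = 3, log2 fold change 1.14, SE 0.171, limma adjusted p = 0.00201).

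Summed within each library, HOXA10 to HOXA13 had 713, 719 and 897 normalized counts in shControl and 1329, 1419 and 1395 in shRNF25. This sum was higher in every shRNF25 library than in any control, while all HOXA genes together were close, with means of 2184 and 2378. The stretch was chosen after the values were seen, so no test is given.

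**Figure D2:**
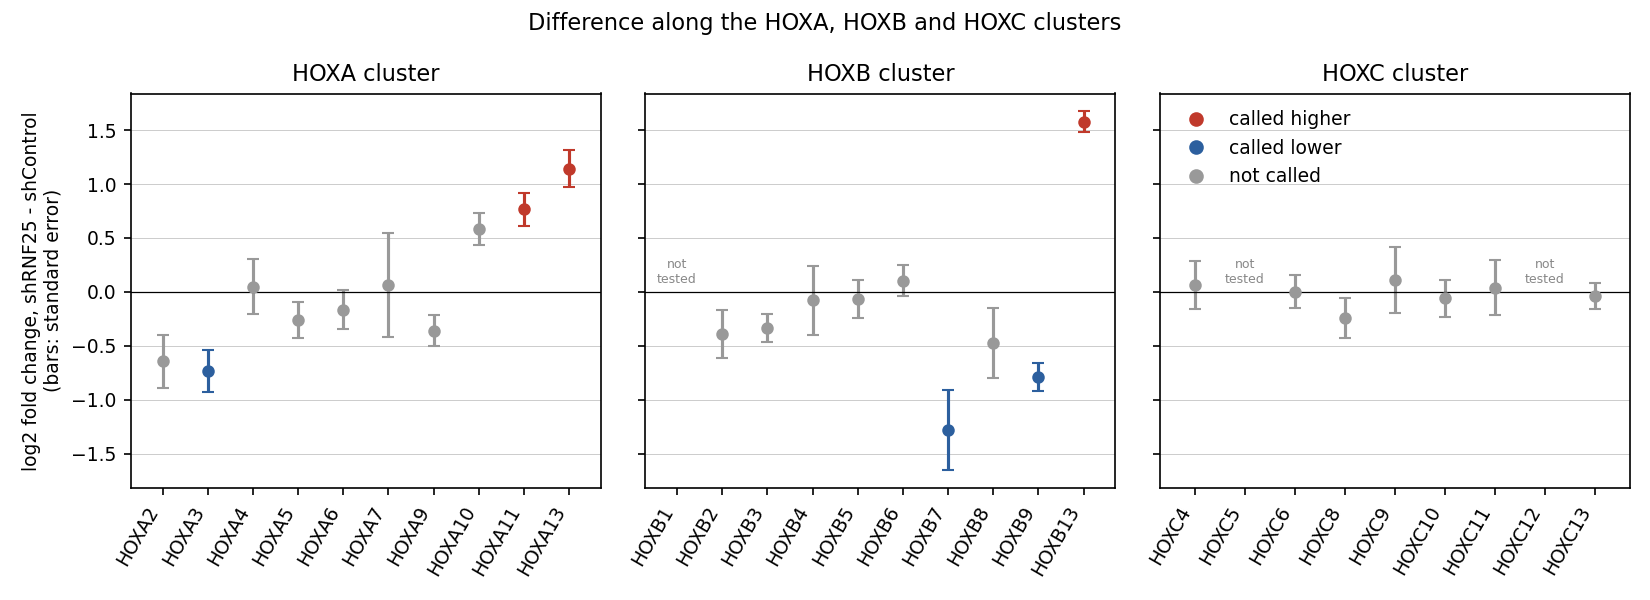
Log2 fold change of shRNF25 against shControl (limma, bars are 1 standard error) for genes of the HOXA, HOXB and HOXC clusters in paralog order, with called genes in red (higher) or blue (lower). HOXA3 lies at -0.74 and HOXA13 at 1.14, HOXB9 and HOXB13 lie on opposite sides of 0 (-0.79 and 1.58), and the 7 tested HOXC genes lie between -0.24 and 0.11.

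Upstream sequences are shown for 3 called HOXA genes, HOXA13 and HOXA11, which rose, and HOXA3, which fell. They let a reader compare promoters of genes that rose and fell in 1 cluster. Each is the 250 bases before the RefSeq start (GRCh38.p14, minus strand, written 5′ to 3′), at chr7:27200092-27200341, chr7:27185233-27185482 and chr7:27152584-27152833. Capitals mark 3 kinds of motif on either strand. The first is the GC box, searched as the letters GGGCGG. The second is the CCAAT box, searched as it is named. The third is the TATA box, searched as the letters TATAAA. In HOXA13 motifs of the first and second kind join in 1 run of capitals. HOXA3 has 7 RefSeq starts, of which the most upstream is shown. This window lies between HOXA6 and HOXA7, not at the HOX1 end, and the other starts lie closer to that end.
HOXA13: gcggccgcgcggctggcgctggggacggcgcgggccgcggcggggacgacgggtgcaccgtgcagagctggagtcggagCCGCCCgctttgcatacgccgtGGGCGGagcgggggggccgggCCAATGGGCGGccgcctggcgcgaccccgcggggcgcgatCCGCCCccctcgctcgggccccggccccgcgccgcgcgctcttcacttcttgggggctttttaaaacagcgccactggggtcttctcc
HOXA11: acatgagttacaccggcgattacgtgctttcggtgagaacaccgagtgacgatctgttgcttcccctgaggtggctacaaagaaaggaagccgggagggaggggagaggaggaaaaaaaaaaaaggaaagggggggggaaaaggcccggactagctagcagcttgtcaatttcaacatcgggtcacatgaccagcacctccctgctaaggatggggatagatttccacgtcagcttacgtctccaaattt
HOXA3: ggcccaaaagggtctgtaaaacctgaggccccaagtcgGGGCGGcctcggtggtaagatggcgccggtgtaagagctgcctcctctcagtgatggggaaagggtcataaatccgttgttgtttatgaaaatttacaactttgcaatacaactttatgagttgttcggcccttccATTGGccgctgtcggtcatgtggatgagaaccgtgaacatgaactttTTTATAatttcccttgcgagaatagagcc
The HOXA13 window held 4 GC boxes, 1 CCAAT box and 40 CpG, and 78% of its bases were G or C. The HOXA11 window held none of the motifs searched and 11 CpG (51.6% G or C), and the HOXA3 window held 1 GC box, 1 CCAAT box and 1 TATA box (48.8% G or C). Among 35116 RefSeq windows of the same length, 42.6% had a GC box, 32% a CCAAT box and 10.7% a TATA box, and the median CpG count was 11. RefSeq windows were matched for 20 HOX genes (27 windows, median CpG count 19), and 18 of the 27 held a CCAAT box. The 27 include the 7 HOXA3 starts, and HOXC4 and HOXC5 have the same window, which is counted for each. The letters TGATNNAT, bound by PBX with HOX proteins, were in 3 of the 27 HOX windows and in 6.47% of all windows. The κB consensus was in 3 of the 27 (HOXA2, and the shared window of HOXC4 and HOXC5 counted for each) and in 9.96% of all windows. These matches describe letters only, and a window without a match says nothing of a factor. Windows were matched for 4 of the 8 called genes, and that of HOXD4 is not shown. No window was matched for HOXB13, HOXB9 and HOXB7.

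No HOXC gene was called by limma, edgeR or DESeq2 (0 of 7 tested), and the groups overlapped for all 7. Over all tested genes, 15.7% were called by limma and 42.5% had no overlap. At an unadjusted limma p below 0.05 there were 0 HOXC genes. Of all 16554 tested genes at least 3525 were (the number at an adjusted p below 0.05). Whether the cluster differs from all genes was not tested. HOXC13, a factor of hair and nail, had 466, 442 and 484 normalized counts in shControl and 434, 502 and 423 in shRNF25. Its log2 fold change was -0.04 (SE 0.121, limma adjusted p = 0.852). HOXC8, a trunk and limb gene, had 185, 124 and 165 in shControl and 138, 144 and 115 in shRNF25. HOXC6, used at the level of the chest, had 252, 182 and 219 in shControl and 213, 232 and 204 in shRNF25, and both pairs of groups overlapped. The 7 tested HOXC genes had log2 fold changes from -0.24 to 0.11 with standard errors from 0.121 to 0.302. The cluster's sum was 1097 ± 122 in shControl and 1053 ± 88.0 in shRNF25 (SD, n = 3). HOXC5, whose symbol is annotated as 2 genes, with 12.1 and 4.94 as group means, and HOXC12, with 2 to 8 reads, were not tested.

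HOXD genes were near silent. Their summed normalized count was 8.84, 16.4 and 14.0 in shControl and 54.7, 49.0 and 49.6 in shRNF25, far below the other clusters in both groups. HOXD4, which acts in the neck region, had 4.42, 4.10 and 6.48 in shControl and 24.6, 24.9 and 20 in shRNF25. The means were 5.00 and 23.2, which is 4.64-fold. HOXD4 passed the filter only through the shRNF25 libraries, so its being tested already required a difference, and its limma p is not given. Of its exon bases, 80.5% are shared with an annotated transcript on the same strand that spans HOXD3 and HOXD4, so its reads could not be assigned to it alone. HOXD3 had 0, 3.08 and 0 in shControl and 8.20, 7.39 and 12.4 in shRNF25, at least 2.9-fold higher against a floor of 3 reads per library (62.2% of its exon bases are shared in the same way). HOXD8 had 3.32, 5.13 and 4.32 in shControl and 15.5, 10.2 and 8.58 in shRNF25. Neither was tested. HOXD1, HOXD9, HOXD12 and HOXD13 had at most 7 reads in any library.

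By paralog group, 2 of the 3 tested HOX13 genes were called higher, HOXA13 and HOXB13, against 8.65% of all tested genes. HOXC13 was not called, and HOXD13, with 1 to 7 reads, was not tested. In group 9, HOXB9 was called lower, HOXA9 had -0.36 and HOXC9 0.11. In group 4, HOXA4, HOXB4 and HOXC4 had log2 fold changes of 0.05, -0.08 and 0.06, and HOXD4 had the limit given above. Differences between paralogs were not tested, and the uncalled genes near 0 among these (HOXC13, HOXC9, HOXA4, HOXB4 and HOXC4) changed sign under other settings.

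Levels between genes were compared per kb of exon. In shControl the order was HOXB9 (526 ± 65.5 normalized counts per kb), HOXB13 (294 ± 6.43), HOXA9 (235 ± 39.2), HOXC13 (192 ± 8.57), HOXB6 (121 ± 20.5) and HOXA11 (113 ± 19.4, SD, n = 3). HOXA9 and HOXC13 overlapped over libraries, as did HOXB6 and HOXA11. In shRNF25 the order was HOXB13 (878 ± 22.1), HOXB9 (303 ± 30.7), HOXA11 (191 ± 11.1), HOXC13 (187 ± 17.7), HOXA9 (182 ± 14.3), HOXB6 (129 ± 0.583) and HOXA13 (109 ± 5.48). HOXA11, HOXC13 and HOXA9 overlapped there from each to the next. Among 15940 tested genes with a length, HOXB13 moved from percentile 79.9 to 94.7 of the level per kb, and HOXA13 from 40.6 to 58.6. HOXB13 took 13.7% to 16.9% of all normalized counts on HOX genes in shControl and 34.9% to 37.9% in shRNF25.

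**Figure D3:**
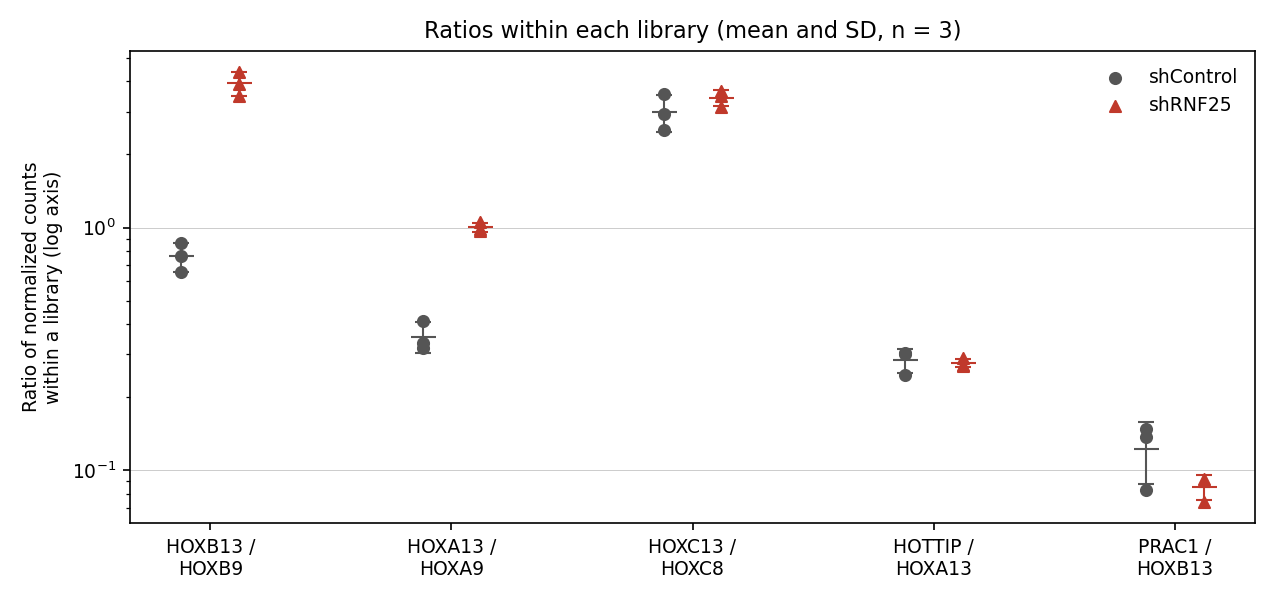
Ratio of the normalized counts of 2 genes within each library (log axis), with shControl as grey circles and shRNF25 as red triangles, and bars for the mean and SD (n = 3). HOXB13 over HOXB9 moves from 0.653 to 0.866 up to 3.49 to 4.37 and HOXA13 over HOXA9 from 0.320 to 0.413 up to 0.971 to 1.05, while HOXC13 over HOXC8 and HOTTIP over HOXA13 overlap between groups.

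Long non-coding RNAs of the clusters are transcribed between and across HOX genes, and several act on the chromatin of HOX genes. Of 25 non-coding symbols, cluster miRNAs among them, 19 were listed. The 13 tested were all long non-coding RNAs. Of these, 2 were called higher (HOTTIP and HOXA11-AS) and 0 lower, 15.4% in all against 15.7% of all tested genes. Their median log2 fold change was 0.41. By limma, edgeR and DESeq2 0 were lower. At an unadjusted limma p below 0.05, 0 were lower and 6 higher. Of all 16554 tested genes at least 3525 were at that p in either direction (the number at an adjusted p below 0.05). HOTTIP, transcribed away from the HOXA13 end and known to bring MLL complexes to HOXA13-side genes, had 84.0, 57.5 and 72.3 normalized counts in shControl and 154, 159 and 146 in shRNF25. It rose 2.15-fold (log2 fold change 1.11, SE 0.179, limma adjusted p = 0.00301). The HOTTIP to HOXA13 ratio was 0.303, 0.301 and 0.246 in shControl and 0.289, 0.272 and 0.270 in shRNF25, so these groups overlapped. The exons of HOXA13 and HOTTIP overlap on opposite strands over 1.69% of HOXA13's exon bases.

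HOXA11-AS, antisense to HOXA11, had 96.2, 111 and 199 in shControl and 212, 223 and 241 in shRNF25. It was called higher with a log2 fold change of 0.80 (SE 0.248, limma adjusted p = 0.0472), a call lost without shControl replicate 1 or 2, without each shRNF25 replicate, with edgeR and with no filter or a filter at 50. Without shControl replicate 3, 4 of the non-coding RNAs were called higher. It overlaps 31.1% of HOXA11's exon bases on the opposite strand, and whether reads were counted by strand is not given in the sources used here, so reads of the pair may not have been told apart. HOTAIR, transcribed from the HOXC cluster and known for its binding of Polycomb proteins, had 98.4, 67.7 and 70.2 in shControl and 94.8, 108 and 79.1 in shRNF25, and was not called. HOTAIRM1, from the HOX1 side of the HOXA cluster, had 122, 155 and 204 in shControl and 236, 202 and 189.7 in shRNF25 and was not called. The 6 tested HOXA non-coding RNAs had log2 fold changes from 0.34 to 1.11. Of the cluster miRNAs, MIR10B and MIR196A2 were listed with at most 4 reads.

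Of the 24 protein-coding genes that flank the clusters, 3 on each side, 23 were tested. EVX1 was called higher and SKAP2 and SNX10 lower, 13% in all against 15.7% of all tested genes. EVX1, a homeobox gene beyond HOXA13, had 0, 3.08 and 4.32 normalized counts in shControl and 14.6, 12.9 and 12.4 in shRNF25. It too passed the filter only through the shRNF25 libraries, and its call was lost without each shRNF25 replicate. Without EVX1, 0 of 22 flanking genes were higher and 2 lower. SKAP2, an adaptor protein gene beyond the HOX1 end of HOXA, had 1329.8, 864 and 787 in shControl and 569, 613 and 576 in shRNF25 (log2 fold change -0.72), and SNX10, a sorting nexin gene further out, had -0.70. Both calls were lost without shControl replicate 1, and that of SKAP2 also without each shRNF25 replicate. Within the HOXB cluster, between HOXB9 and HOXB13, lie PRAC1 and PRAC2, named for their expression in prostate, rectum and colon and looked at here after their values were seen. PRAC1 had 82.9, 154 and 138 in shControl and 278, 269 and 232 in shRNF25 and rose with a log2 fold change of 1.09 (SE 0.226, limma adjusted p = 0.00935; lost without shRNF25 replicate 1). PRAC2 had 13.3, 28.7 and 38.9 in shControl and 48.3, 61.9 and 70.5 in shRNF25 and rose with 1.24 (SE 0.362, limma adjusted p = 0.0393; lost without shControl replicate 2, without each shRNF25 replicate, with no filter and with quantile normalization).

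**Figure D4:**
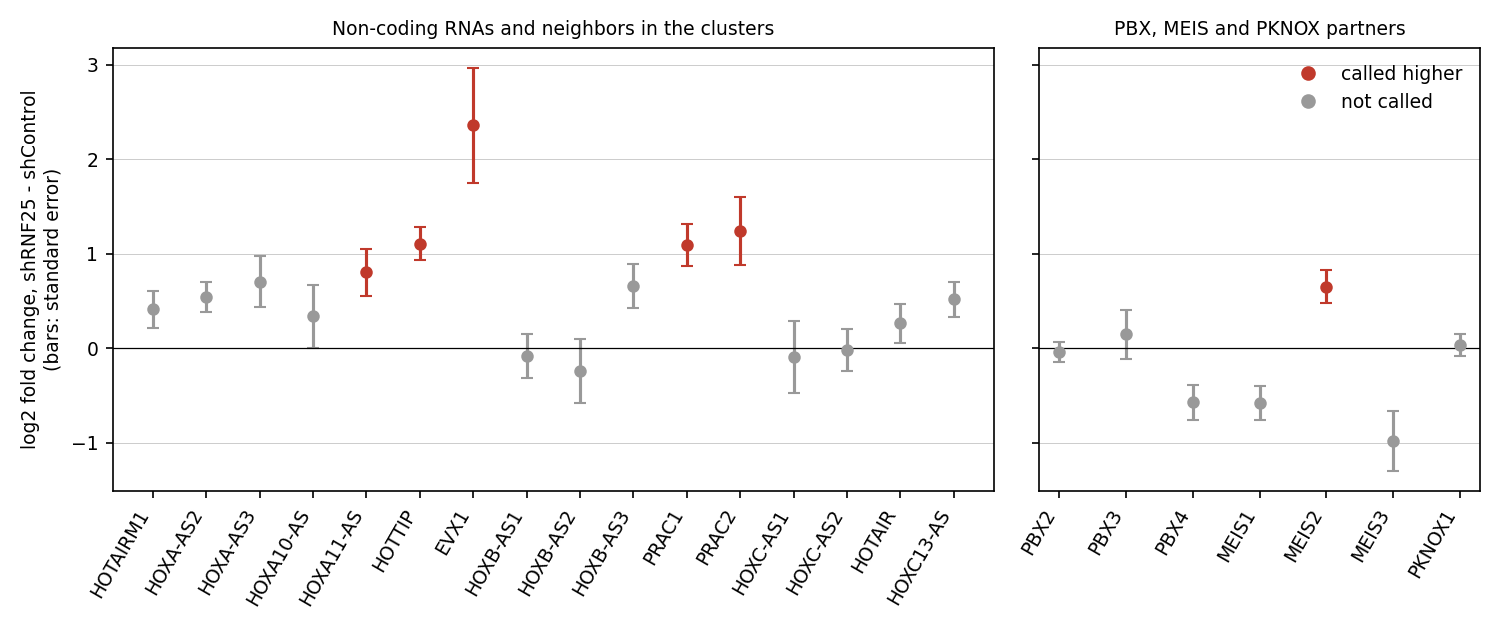
Log2 fold change of shRNF25 against shControl (limma, bars are 1 standard error) for non-coding RNAs and neighbors in or beside the clusters (left) and for tested PBX, MEIS and PKNOX genes (right), with called genes in red. EVX1 at 2.36, HOTTIP at 1.11, PRAC1 at 1.09, PRAC2 at 1.24 and HOXA11-AS at 0.80 were called higher, as was MEIS2 at 0.65; EVX1 passed the filter through the shRNF25 libraries alone.

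TALE homeodomain proteins (PBX, MEIS and PKNOX) bind DNA together with HOX proteins. Of 8 tested, 2 were called higher and 0 lower by limma (25% in all, against 15.7% of all tested genes). The median log2 fold change was -0.01. At an unadjusted limma p below 0.05, 3 were lower and 2 higher, against at least 3525 of all 16554 tested genes in either direction (the number at an adjusted p below 0.05). Of the 8 genes, edgeR called 0 and DESeq2 1 lower. MEIS2, a factor of heart and palate formation, had 259, 185 and 246 in shControl and 321, 420.2 and 340.3 in shRNF25 and rose 1.57-fold (0.65, SE 0.171, limma adjusted p = 0.0254). Without shRNF25 replicate 1 or 2, 0 TALE genes were called higher, and the call of MEIS2 was also lost without shControl replicate 2 or shRNF25 replicate 3.

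Of 24 MLL and trithorax group genes, which include CTCF, 0 were called higher and 1 lower, with a median of -0.11. This is 4.17% in all, against 15.7% of all tested genes. At an unadjusted limma p below 0.05, 1 was higher and 4 lower, against at least 3525 of all 16554 tested genes in either direction (the number at an adjusted p below 0.05). EdgeR and DESeq2 called 0 higher. The 1 gene, AFF1, a subunit of the elongation complex fused to MLL in leukemia, had a log2 fold change of -0.67 (limma adjusted p = 0.0153), a call lost without shControl replicate 1, without each shRNF25 replicate and with quantile normalization. Without shControl replicate 2 or 3, 2 genes of the list were called lower. Of 33 Polycomb genes, 3 were called higher and 1 lower (12.1%, against 15.7% of all tested genes), with a median of -0.04. JARID2, which helps to place PRC2, had 1215, 1015 and 1144 normalized counts in shControl and 611, 641 and 599 in shRNF25 and fell 1.82-fold (log2 fold change -0.86, limma adjusted p = 0.00103). PHF19, another PRC2 accessory, rose with 0.86 (limma adjusted p = 0.00431), and it was the 1 gene of the 3 still called without shControl replicate 1 and without each shRNF25 replicate. The others were CBX8 (0.72) and PHC2 (0.59), subunits of PRC1. Without shControl replicate 3, 2 Polycomb genes were called lower.

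Of 21 CDX and retinoic acid genes, 17 were listed and 12 tested; CDX1, CDX2 and CDX4 were not listed. ALDH1A2, an enzyme that makes retinoic acid, had 4.42, 3.08 and 1.08 normalized counts in shControl and 22.8, 23.1 and 23.8 in shRNF25. CRABP1, a retinoic acid binding protein, had 0, 0 and 2.16 in shControl and 14.6, 20.3 and 17.2 in shRNF25, at least 5.4-fold higher against the floor of 3 reads per library. Both were called higher, but they were low and passed the filter only through the shRNF25 libraries, so their being tested required a difference. ALDH1A3, the abundant enzyme of the same step, had 22539, 26604 and 30383 in shControl and 12743, 13775 and 14293 in shRNF25 and fell 1.95-fold (log2 fold change -0.95, SE 0.131, limma adjusted p = 0.00133). STRA6, the cell surface receptor for retinol carried by its binding protein, had 269, 326 and 768 in shControl and 134, 166 and 136 in shRNF25 and was called lower (log2 fold change -1.48, SE 0.335, limma adjusted p = 0.0137; lost without shRNF25 replicate 1 or 3). Without ALDH1A2 and CRABP1 the list had 0 genes higher and 2 lower of 10 tested (20%, against 15.7% of all tested genes). The median log2 fold change over all 12 was 0.08.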

How the data were processed

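Bulk RNA-seq of SW839 cells was analysed in 6 libraries, 3 shRNF25 and 3 shControl, grouped by their titles. The authors deposited normalized counts per gene, a signal scaled for library size. The submitters' processing notes name fastp, HISAT2, HTSeq and GRCh38; per the methods, libraries were stranded and depleted of ribosomal RNA, and DESeq2 was used. Dividing out each library's size factor (0.905 to 1.1) gave whole reads for 100% of values (tolerance 0.01).

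Normalized counts were kept as deposited, transformed as log2(value + 1), filtered (at least 10 in at least 3 libraries) and compared with limma 3.58.1 (trend) in R 4.3.3, with Benjamini-Hochberg adjustment over 16554 genes. Fold changes on this scale understate low genes. Alternatives were other pseudocounts, filters, scalings and fold minimums, edgeR 4.0.16 and DESeq2 1.42.0 on recovered reads, the replicate block and leaving out each library. On simulated data limma recovered 100 of 100 genes changed 4-fold and 87 of 100 changed 2-fold, with 7 false calls, among 16448 genes. The simulation gave every gene the same dispersion, changed only genes above a minimum mean and held no outlying library. Its rates therefore need not hold for the HOX calls. Exon lengths and overlaps came from GENCODE (GRCh38).

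Members and lists were chosen with earlier results of these data known. Some genes that enter the counts are not reported here. Otherwise named were called HOX genes, the 3 highest tested per cluster by count per kb, HOTAIR, HOTTIP, HOTAIRM1, and up to 4 called genes per direction of each other list. Exact permutation tests were two-sided.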

Additional observations from a re-analysis of the deposited data

How the results depend on the processing

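RNF25 stayed called lower in every fit (-1.34 to -1.15). Of the 8 called HOX genes, 5 kept their direction and call in all 15 alternative fits, and HOXA3 and HOXB7 kept their direction only. HOXD4 was called in the 14 fits in which it was tested (not with the filter at 50). In these, apart from the fit with no filter, its being tested already required a difference, so its kept call is no support. No scaling that was tried moved the median of all genes by over 0.1. Scaling to total reads on genes was not tried, and it would move all log2 fold changes up. With a fold minimum of 2, the calls were 2 lower HOX genes, 1 higher non-coding RNA, 0 higher TALE genes, 0 lower trithorax genes, 0 lower and 0 higher Polycomb genes and 1 lower retinoic acid gene. The number of all genes called at that minimum is not given here. With adjusted p alone, 1 TALE and 4 Polycomb genes were lower and 1 trithorax gene higher. Over all tested genes 3525 of 16554 passed the adjusted p alone in either direction, and 7 of the 33 Polycomb genes did. Higher non-coding RNAs numbered 1 with no filter, with a filter at 50 and with edgeR; a filter at 50 left 0 higher retinoic acid genes, and no filter gave 1 lower kidney gene. Quantile normalization gave 3 lower TALE and 5 lower ANTP-class genes, and DESeq2 1 lower TALE and 3 lower trithorax genes. Over all 16554 genes, 1219 were lower with quantile normalization and 1220 with DESeq2, and 1525 were higher with edgeR. With no filter 1440 of 30267 genes were higher and 1146 lower, and with a filter at 50, 898 of 12755 were higher. The replicate block, whose numbers did not pair the libraries (correlations -0.0638, -0.0874 and 0.0471), gave 2 lower trithorax genes, kept all 8 HOX calls, and moved calls over all genes to 1398 higher and 1193 lower.

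Leaving out 1 library gave 2 to 4 lower HOX genes, 1 to 4 higher non-coding RNAs, 0 to 1 lower and 0 to 2 higher TALE genes, 0 to 2 lower trithorax genes, 1 to 2 lower and 1 to 3 higher Polycomb genes, 1 to 2 lower retinoic acid genes and 1 to 3 lower ANTP-class genes. Over all tested genes, the main fit called 1432 higher and 1175 lower. Leaving out 1 shRNF25 library gave 748 to 831 higher and 813 to 827 lower. Leaving out 1 shControl library gave 1251 to 1725 higher and 1083 to 1269 lower. Uncalled HOX genes near 0 changed sign. Under quantile normalization HOXA4 had -0.16, HOXA7 -0.50, HOXC4 -0.0556, HOXC6 -0.00792, HOXC9 -0.0958, HOXC11 -0.178 and HOXC13 0.0204; under rescaling on abundant genes HOXC10 had 0.00708 and HOXC13 0.0281; HOXB4 had 0.0222 with edgeR and 0.00153 with DESeq2. With 1 library left out, log2 fold changes ran for HOXA4 from -0.115 to 0.217, HOXA7 from -0.213 to 0.504, HOXB4 from -0.312 to 0.213, HOXB5 from -0.234 to 0.0444, HOXC4 from -0.0628 to 0.274, HOXC6 from -0.121 to 0.114, HOXC9 from -0.141 to 0.332, HOXC10 from -0.17 to 0.0773, HOXC11 from -0.149 to 0.189 and HOXC13 from -0.114 to 0.00938. Over all named results and alternatives, 939 values kept direction and side of the threshold, 95 were weaker, 20 stronger and 30 reversed. The cause of these changes was not tested. Counting error weighs most on genes of few reads: HOXD4 had 4 to 6 reads per shControl library and 21 to 27 per shRNF25 library.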

Other observations

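Of 47 homeobox genes of the same class outside the HOX clusters (the ANTP class), 35 were listed and 20 tested; 3 were called higher and 3 lower, and 14 were not called. Over all tested genes 8.65% were called higher and 7.1% lower, and the class had a median log2 fold change of -0.02. EVX1, with the limit given above, is 1 of the 3 higher genes, and without it 2 of 19 were higher and 3 lower. EN2, a midbrain and cerebellum factor, had 56.4, 56.4 and 52.9 normalized counts in shControl and 126, 127 and 136 in shRNF25 and rose 2.35-fold (log2 fold change 1.21, SE 0.155, limma adjusted p = 0.000948). HMX3, an inner ear and hypothalamus factor, had 61.9, 53.4 and 55.0 in shControl and 130.3, 151 and 142 in shRNF25 and rose 2.49-fold (1.30, SE 0.161, limma adjusted p = 0.000787). BARX2, a factor of muscle and head tissues, had 205, 213 and 112 in shControl and 39.2, 50.8 and 49.6 in shRNF25 and fell 3.80-fold (-1.86, SE 0.258, limma adjusted p = 0.00141). MEOX1, a somite factor (-1.17), and MSX2, a skull and tooth factor (-0.84), were also called lower, and without shRNF25 replicate 2 BARX2 was the 1 gene of the class still called lower.

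Of 13 genes that act beside the HOX11 paralogs in kidney formation, 10 were listed and 6 tested. OSR1, an early marker of the tissue from which the kidney arises, had 217, 207 and 214 normalized counts in shControl and 405, 470.1 and 440.4 in shRNF25 and rose 2.06-fold (log2 fold change 1.04, SE 0.122, limma adjusted p = 0.000585). It was the 1 called gene of the list (16.7%, against 15.7% of all tested genes), was called in every alternative, and the median of the 6 was -0.08. By limma, edgeR and DESeq2 0 were called lower. At an unadjusted limma p below 0.05, 2 were lower and 1 higher, against at least 3525 of all 16554 tested genes in either direction (the number at an adjusted p below 0.05).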
